A study of Arabidopsis thaliana with 12 samples.

Results

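The genes described here are 10 genes of Arabidopsis thaliana that act when a cell divides: the B-type cyclins CYCB1;1 (AT4G37490), CYCB1;2 (AT5G06150), CYCB1;3 (AT3G11520) and CYCB1;4 (AT2G26760), the A-type cyclin CYCA1;1 (AT1G44110), the kinases CDKB1;1 (AT3G54180), CDKB1;2 (AT2G38620), CDKB2;1 (AT1G76540) and CDKB2;2 (AT1G20930), and KNOLLE (AT1G08560, named SYP111 in the reference). They were chosen by identifier, with earlier results of these data known, and all 10 were among the 37184 annotated genes counted. RNA-seq was made from seedlings 21 days old grown on soil, 3 libraries of wild-type Col-0 and 3 of xrn3-8, a mutant of the nuclear 5′-to-3′ exoribonuclease XRN3. Small RNA-seq was made from other seedlings, 14 days old and grown on MS plates, again 3 libraries per genotype. The study's title asks how termination of transcription by XRN3 bears on the expression of protein-coding genes.

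Plant cells enter and leave mitosis through kinases that are active only when bound to a cyclin. A- and B-type cyclins accumulate from the replication of DNA to mitosis and are then destroyed, and the B-type CDKs are a class of kinase found in plants whose RNA is tied to the same part of the cycle. KNOLLE is a syntaxin, a membrane fusion protein, that is made in dividing cells and builds the cell plate at cytokinesis. In a seedling these RNAs come mainly from the shoot and root tips, from growing leaves and from the stomatal lineage, so that in whole tissue they report on a small share of the cells.

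RNA-seq counts over annotated genes lay between 61604670 and 79845518 per library, and small RNA counts over genes between 5873199 and 7122245. Levels are given as CPM, which are read counts divided by the scaled size of the library and set to a total of 1e+06. XRN3 itself (AT1G75660) had a mean level of 48.8 ± 0.21 CPM in the wild type and of 20.5 ± 1.33 CPM in the mutant (SD, n = 3 each), the direction the labels imply. In RNA from seedlings, more dividing cells and more RNA per dividing cell cannot be told apart. The root tip genes PLT1 and PLT2 had no read in any RNA-seq library, and whether this RNA held root tips was not tested. CPM were not divided by transcript length, so levels are compared between genotypes and not between genes.

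All 10 genes had a higher mean in xrn3-8, and 8 of them passed the test: the 5 cyclins, both CDKB1 kinases and KNOLLE. Over all genes tested, 15.9% were higher by the same test (edgeR's quasi-likelihood test, adjusted p under 0.05). None of the 10 was lower, against 17.4% of all genes. The balance over all genes depends on the scale, since 3289 genes were higher and 3593 lower after scaling, and 5458 higher and 2215 lower with total counts, where all 10 mitotic genes passed as higher. For 9 of the 10 every xrn3-8 library lay above every Col-0 library, which was so for 24.1% of all genes, while the reverse, seen for 24% of all genes, was seen for none of the 10. The median log2 fold change of the 10 genes was 0.72, beside 0.0043 over all 20653 genes tested. Summed over the 10 genes, the level lay between 37.5 and 43.7 CPM in the Col-0 libraries and between 66.9 and 77.3 CPM in the xrn3-8 libraries.

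**Figure D1:**
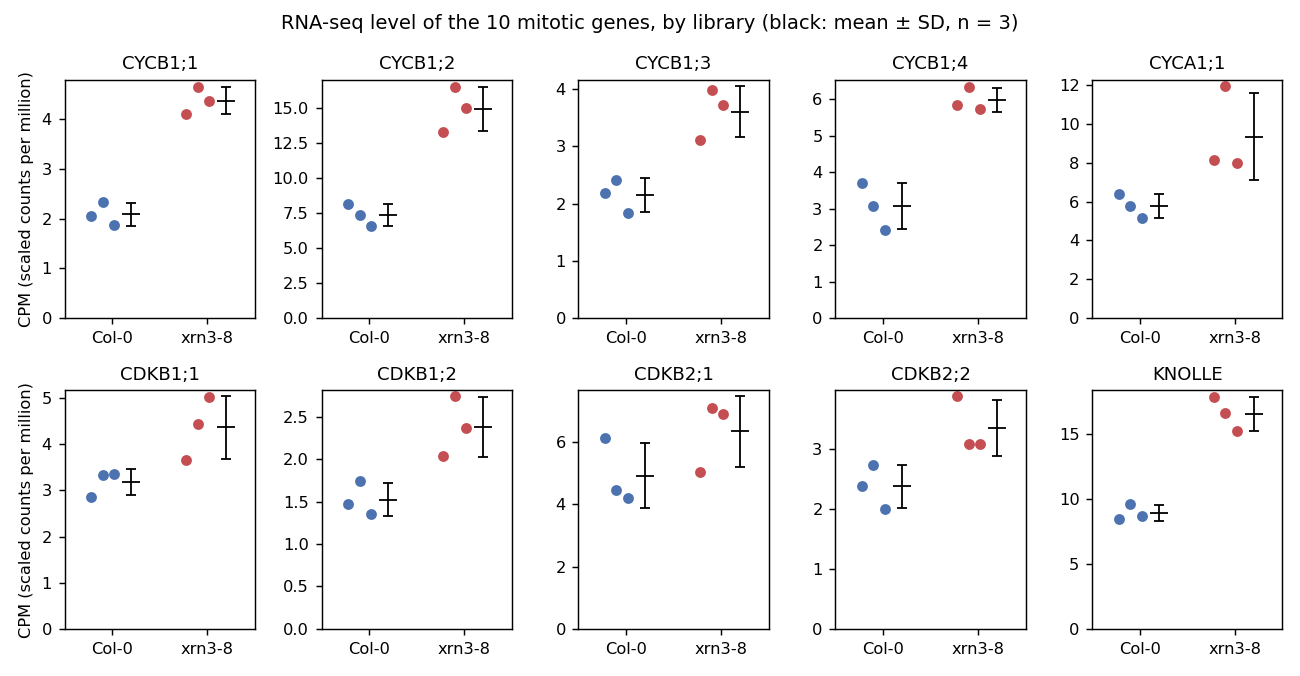
RNA-seq level of each of the 10 genes in CPM (vertical axes, each starting at 0) in the 3 Col-0 (blue) and 3 xrn3-8 (red) libraries. Points are libraries and the black bars are mean ± SD. The groups are apart in 9 panels and overlap for CDKB2;1.

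The 4 B-type cyclins among the 10 genes, regulatory subunits that carry cells into mitosis, rose. CYCB1;1, which is also known to respond to DNA damage, stood at 2.05, 2.33 and 1.87 CPM in Col-0 and at 4.10, 4.64 and 4.35 CPM in xrn3-8. Every xrn3-8 library lay above every Col-0 library, and the log2 fold change was 1.07 (SE 0.15, adjusted p = 0.00044), a 2.09-fold rise. CYCB1;2 (named CYC1BAT in the reference) stood at 8.14, 7.38 and 6.62 CPM in Col-0 and at 13.3, 16.5 and 15.05 CPM in xrn3-8. Its rise was 2.03-fold (log2 fold change 1.02, SE 0.11, adjusted p = 8.7e-05).

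CYCB1;4 stood at 3.70, 3.08 and 2.43 CPM in Col-0 and at 5.84, 6.34 and 5.73 CPM in xrn3-8. The highest Col-0 library was thus well below the lowest xrn3-8 library, and the log2 fold change was 0.96 (SE 0.16, adjusted p = 0.0012). CYCB1;3 stood at 2.19, 2.42 and 1.84 CPM in Col-0 and at 3.11, 3.98 and 3.73 CPM in xrn3-8. It rose by the smallest amount of the 4 B-type cyclins, 1.68-fold (log2 fold change 0.75, SE 0.17, adjusted p = 0.0075).

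CYCA1;1, an A-type cyclin, stood at 6.37, 5.79 and 5.13 CPM in Col-0 and at 8.11, 11.9 and 7.97 CPM in xrn3-8. The groups did not overlap, but xrn3-8 replicate 2 lay far above the other two xrn3-8 libraries. The log2 fold change was 0.70 (SE 0.16, adjusted p = 0.0082), and without that library it was 0.49 (adjusted p = 0.017).

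The B-type kinases, the catalytic partners of these cyclins, had log2 fold changes between 0.37 and 0.64, and 2 of the 4 passed. CDKB1;2 stood at 1.48, 1.74 and 1.35 CPM in Col-0 and at 2.04, 2.74 and 2.36 CPM in xrn3-8. It rose 1.56-fold (log2 fold change 0.64, SE 0.20, adjusted p = 0.030), with no overlap between the groups. CDKB1;1, which is also needed for the divisions of the stomatal lineage, stood at 2.86, 3.34 and 3.34 CPM in Col-0 and at 3.65, 4.45 and 5.01 CPM in xrn3-8. The gap between the groups was narrow, and the log2 fold change of 0.46 (SE 0.16) passed with an adjusted p = 0.046.

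Both CDKB1 calls depended on single libraries. CDKB1;1 did not pass without any one of Col-0 replicates 1, 2 and 3 or xrn3-8 replicates 2 and 3, where its adjusted p reached 0.16. CDKB1;2 did not pass without Col-0 replicate 1 or 3 or without xrn3-8 replicate 2 or 3, with an adjusted p of up to 0.10. The 5 cyclins and KNOLLE passed in all 6 fits without 1 library, and the count of genes called higher ranged from 6 to 9 over these fits.

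The CDKB2 kinases, whose RNA is the more tightly tied to mitosis, did not pass in the test as set. CDKB2;2 stood at 2.39, 2.74 and 2.01 CPM in Col-0 and at 3.89, 3.08 and 3.08 CPM in xrn3-8. All xrn3-8 libraries were above all Col-0 libraries, and the log2 fold change was 0.49 (SE 0.18, adjusted p = 0.057). This gene lay at the threshold, since it passed with DESeq2 (adjusted p = 0.046), with total counts (0.015), with the replicate number as a block (0.0496) and without Col-0 replicate 2 (0.047), and in no other alternative. CDKB2;1 stood at 6.11, 4.45 and 4.20 CPM in Col-0 and at 5.04, 7.07 and 6.90 CPM in xrn3-8, so that the groups overlapped (log2 fold change 0.37, SE 0.18, adjusted p = 0.14). Without Col-0 replicate 1, the library in which Col-0 was highest, its log2 fold change was 0.55 and passed (adjusted p = 0.043), as it did without xrn3-8 replicate 1 (0.50, adjusted p = 0.046). Its count was also less sure than the others, since it was 6.86% higher in the table counted with the windows than in the table counted with the assembled loci, while the other 9 genes differed by 4.0% or less.

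KNOLLE stood at 8.45, 9.59 and 8.66 CPM in Col-0 and at 17.9, 16.6 and 15.3 CPM in xrn3-8. The groups were far apart, with every xrn3-8 library above every Col-0 library. Its log2 fold change of 0.90 had the smallest error of the 10 genes (SE 0.097, adjusted p = 7.0e-05), a 1.86-fold rise.

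**Figure D2:**
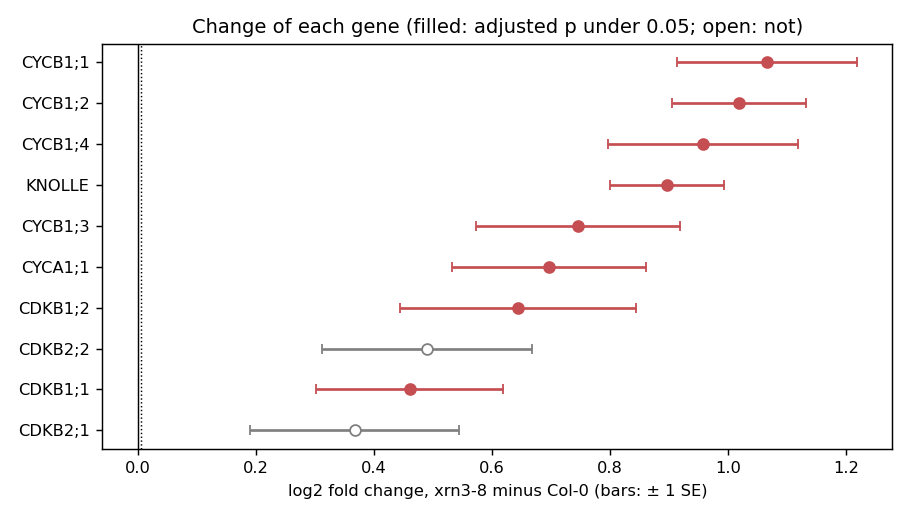
Log2 fold change of each gene, xrn3-8 minus Col-0, from edgeR (horizontal axis, where bars are 1 SE and filled points have an adjusted p under 0.05). The B-type cyclins and KNOLLE lie between 0.75 and 1.07, and the 4 B-type kinases between 0.37 and 0.64. The dotted line is the median of all genes tested.

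Within a genotype the libraries had an order that many of the genes shared. Of the 10 genes, 8 were lowest of the Col-0 libraries in Col-0 replicate 3. Of the xrn3-8 libraries, xrn3-8 replicate 2 was the highest for 7 of the 10 genes, and for none was it the lowest. The fold changes of related genes were therefore also compared as ratios taken within each library, where the scale of the library cancels.

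The 5 ratios were compared by an exact permutation test (two-sided, adjusted over the 5 pairs), for which 0.1 is the smallest unadjusted p that 3 against 3 can give. The log2 ratio of CYCB1;3 to CYCB1;2 lay between -1.85 and -1.57 in Col-0 and between -2.06 and -1.98 in xrn3-8. It was lower by 0.29 in xrn3-8 on average (difference -0.29, SE 0.088), with no overlap (exact p = 0.1, adjusted p = 0.5). The same ratio for CYCB1;1 differed by 0.027 (SE 0.099, exact p = 0.9) and that for CYCB1;4 by -0.052 (SE 0.11, exact p = 0.7). For the kinases, CDKB1;2 to CDKB1;1 differed by 0.17 (SE 0.16, exact p = 0.4) and CDKB2;2 to CDKB2;1 by 0.12 (SE 0.32, exact p = 0.7). No ratio could have passed at 0.05 in this design, and the errors are wide, so that the pairs are not shown to respond alike.

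Of the other A- and B-type cyclins, 8 of the 14 tested were higher (57.1%, beside 15.9% of all genes). Of the 14, 0 were lower (17.4% of all genes), and the median log2 fold change was 0.50. All 4 cyclins of the CYCB2 group in this list rose, with log2 fold changes between 0.74 and 1.27. For example, CYCB2;4 rose from 3.98 ± 0.59 to 7.49 ± 0.25 CPM and CYCB2;1 from 0.869 ± 0.058 to 2.1 ± 0.36 CPM. CYCB1;5, the remaining CYCB1 gene, had means of 3.70 ± 0.22 and 4.04 ± 0.39 CPM with overlapping groups (log2 fold change 0.13, adjusted p = 0.51). Without Col-0 replicate 3 the count of higher cyclins in the list was 6. The D-type cyclins, which act at the entry to the cycle, were mixed: 3 of 9 were higher and 1 was lower. Over all genes 15.9% were higher and 17.4% lower. The median of the 9 D-type cyclins was 0.085. The 3 that rose did so by log2 fold changes of 0.41 to 0.64, and CYCD2;1 fell from 18.3 ± 0.70 to 13.1 ± 0.26 CPM (adjusted p = 0.0012).

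Genes of the spindle, the spindle checkpoint and cytokinesis were higher in 15 of 17 (88.2%, beside 15.9% of all genes) and lower in 0. Their median was 0.83, and 14 or 15 were higher with any 1 library left out. HINKEL, a kinesin of the cytokinetic apparatus, rose from 10.2 ± 1.1 to 20.6 ± 2.11 CPM. MAP65-3, which bundles its microtubules, rose from 7.03 ± 0.41 to 13.6 ± 1.74, and the kinesin gene PAKRP1L from 9.84 ± 0.025 to 16.7 ± 1.37. TPX2, a spindle assembly factor, rose from 6.51 ± 0.41 to 12.9 ± 2.11 CPM. The SNARE partners of KNOLLE also serve secretion in cells that do not divide. With KEULE, the regulator of KNOLLE, they gave 0 higher and 3 lower of 6, beside 17.4% of all genes lower. The median was -0.18. SNAP33 fell from 125.6 ± 19.5 to 72.8 ± 3.54 CPM (adjusted p = 0.00037), while SYP71 and VAMP722 fell by log2 fold changes of -0.25 (adjusted p = 0.029) and -0.27 (adjusted p = 0.041). SNAP33 was the 1 partner still lower without Col-0 replicate 2, Col-0 replicate 3 or xrn3-8 replicate 1 and with total counts as the scale. Under that last scale 1 other partner was called higher.

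Of the activators and inhibitors of the anaphase-promoting complex, the ligase that destroys mitotic cyclins, 4 of 7 were higher and 0 lower (median log2 fold change 0.76). This was 57.1% higher, beside 15.9% of all genes. The activator genes CDC20.1 and CDC20.2 rose from 5.52 ± 0.094 to 12.1 ± 0.31 CPM and from 3.37 ± 0.48 to 7.09 ± 0.25 CPM, but they are close copies of each other, so that the split of reads between them is uncertain. CCS52B rose by 0.86 and the inhibitor gene OSD1 by 0.65 on the log2 scale. The activators CCS52A1 and CCS52A2, known for endoreduplication, had log2 fold changes of 0.037 (adjusted p = 0.84) and 0.020 (adjusted p = 0.93).

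Among 14 transcription regulators of the cycle 6 were higher (42.9%, beside 15.9% of all genes) and 0 lower. The median of the 14 was 0.39. MYB3R4, an activator of genes expressed at mitosis, rose from 6.47 ± 0.74 to 13.2 ± 0.71 CPM (log2 fold change 1.03, SE 0.11, adjusted p = 6.1e-05), and the related MYB3R1 by 0.44 (SE 0.089, adjusted p = 0.0034). DEL2, an atypical E2F, and TSO1 rose by 0.78 and 0.43. RBR1, the retinoblastoma-related repressor, stood at 34.7 ± 0.33 and 32.9 ± 1.66 CPM (adjusted p = 0.45).

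Of the 18 replication genes of S phase 4 were higher (22.2%, beside 15.9% of all genes) and 0 lower, and their median log2 fold change was 0.21. The licensing factor genes CDT1A and CDT1B rose by log2 fold changes of 0.67 and 0.64, and MCM4 and MCM2, subunits of the replicative helicase, by 0.46 and 0.39. PCNA1 and PCNA2, the clamp of the replication fork, had log2 fold changes of 0.03 (adjusted p = 0.84) and -0.23 (adjusted p = 0.058). The count of higher genes in this list was 2 without Col-0 replicate 3 and 9 with total counts in place of the scaling factors, while 1 gene was lower without Col-0 replicate 2 and 2 with assembled loci fitted alongside.

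Of the kinase CDKA;1, the CDK-activating kinases and the CKS subunits, 1 of 7 was higher and 1 lower, beside 15.9% and 17.4% of all genes. The higher one, CDKD;1, passed narrowly (log2 fold change 0.64, adjusted p = 0.0496) and did not pass in 5 of the 6 fits without 1 library. CDKA;1, the kinase that works throughout the cycle, stood at 33.7 ± 0.27 CPM in Col-0 and 28.0 ± 3.15 in xrn3-8 (log2 fold change -0.26, adjusted p = 0.045), a call lost in each fit without 1 library except that without xrn3-8 replicate 3, and with total counts as the scale. Of 10 tested CDK inhibitor genes with WEE1, 1 was higher and 1 lower, again beside 15.9% and 17.4% of all genes. SMR1 rose by 0.61 (adjusted p = 0.013) and KRP6 fell from 5.22 ± 0.53 to 2.32 ± 0.21 CPM (adjusted p = 0.00020). DNA damage response genes were listed because CYCB1;1 is known to be induced along with them. By edgeR, beside the same shares of all genes, these gave 0 higher and 0 lower of 9, with 1 at an unadjusted p under 0.05. DESeq2 also gave 0 higher and 0 lower of the 9. Without Col-0 replicate 1 edgeR called 1 of them higher, and without xrn3-8 replicate 1 it called 1 lower. SOG1, the transcription factor that drives the plant response to DNA damage, stood at 9.25 ± 0.94 CPM in the wild type and 10.05 ± 0.13 CPM in the mutant (adjusted p = 0.40).

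**Figure D3:**
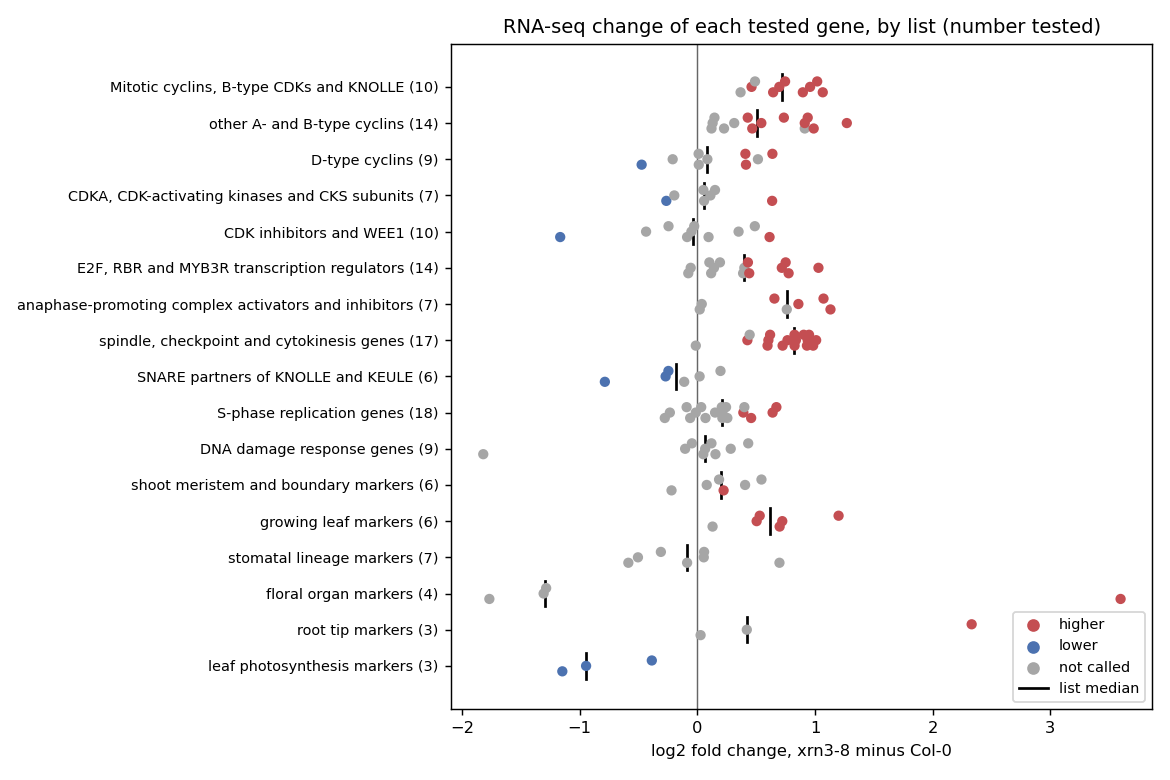
Log2 fold change, xrn3-8 minus Col-0, of each tested gene (points, red higher, blue lower and grey neither at an adjusted p of 0.05), one row per gene list with the number tested, where black bars are list medians. The 10 genes and the spindle and cytokinesis genes lie almost wholly to the right of 0, and the SNARE partners of KNOLLE do not.

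Markers of growing leaves moved with the mitotic genes. Of these transcription regulators 5 of 6 were higher (83.3%, beside 15.9% of all genes) and 0 lower. Their summed level lay between 36.2 and 38.4 CPM in Col-0 and between 47.2 and 58.8 CPM in xrn3-8. GRF5 rose from 2.54 ± 0.16 to 5.84 ± 0.81 CPM (adjusted p = 0.00016), GRF1 from 5.95 ± 0.30 to 8.59 ± 0.75, ANT from 12.1 ± 0.63 to 17.1 ± 2.72 and GRF2 from 3.25 ± 0.48 to 5.28 ± 1.02 CPM. Markers of leaf photosynthesis moved the other way, with 3 of 3 lower, beside 17.4% of all genes. With total counts as the scale, and in some fits without 1 library, 2 of 3 were lower. Their summed level was 7064 to 7642 CPM in Col-0 and 4375 to 5286 CPM in xrn3-8. Of these 3 genes, LHCB2.1 and RBCS1A have close copies in the genome that may share their reads. Of the shoot meristem markers 1 of 6 tested was higher (16.7%, beside 15.9% of all genes). This was CLV1, with an adjusted p = 0.049 that did not hold in 5 of the 6 fits without 1 library. STM, the defining gene of the meristem, stood at 2.42 ± 0.51 and 2.56 ± 0.11 CPM. The summed meristem level was 55.3 to 58.7 CPM in Col-0 and 62.3 to 68.1 CPM in xrn3-8, but CLV1 alone made up most of it, with means of 51.4 ± 2.31 and 60.04 ± 3.52 CPM. WUS, which marks its organizing centre, had 2 reads in Col-0 replicate 1 and 0 in the other libraries. The part of leaf age or of the make-up of the tissue in the rise of the mitotic genes was not tested.

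Outside the 10 genes, 17609 genes with a mean of at least 1 CPM were ranked by how closely their centred log2 level followed the mean of the 10 genes over the 6 RNA-seq libraries. The measure was the root mean square difference. The closest were AT2G37420 with a difference of 0.049 and a rise from 8.43 to 14.5 CPM, AT5G60930 (0.049), AT4G14970 (0.050) and CDT1A (0.050). They were followed by ERD3 (0.053), SEX4 (0.054), AT1G27170 (0.054) and emb2444 (0.057). Of the 10 genes, CYCB1;3 (0.065) and CDKB1;2 (0.097) were the closest to the mean and CDKB2;1 the farthest from it at 0.25. Each of the 10 is part of that mean, so its closeness is partly built in. The points are 6 libraries of 2 genotypes, so that any gene with a like step between the genotypes scores well on this measure.

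Reads were also counted in windows each named 500 plus a gene identifier. No label says on which side of its gene a window was placed, so that its reads cannot be taken as transcripts that run past the gene. The window counts held a window for 9 of the 10 genes, with none for CYCB1;1, and none of the 9 held enough reads for the test. Among the 2925 windows that did, 49.3% were higher and 1.61% lower, while DESeq2 called 804 windows higher and 301 lower, and scaling by the windows themselves gave 671 higher and 347 lower. Of the 2752 ratios of a window to its gene 51.1% were higher and 0.4% lower. In the window of CYCA1;1 the 3 wild-type libraries had 1, 1 and 1 reads and the mutant libraries 8, 7 and 2. That of CYCB1;2 had 0, 0 and 2 reads in the wild type and 4, 3 and 5 in the mutant. In the windows of CYCB1;3 and CDKB1;2 no read was counted in any of the 6 libraries.

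As raw counts summed over the 9 windows, wild-type libraries held 2, 6 and 3 reads and mutant libraries 20, 19 and 16. Relative to the counts of the same 9 genes this was 0.147% ± 0.075 in Col-0 and 0.377% ± 0.10 in the mutant (mean ± SD over libraries). Over all windows and all annotated genes the share was 0.180% ± 0.0074 in Col-0 and 0.355% ± 0.043 in xrn3-8. Those gene counts include genes with no window and chloroplast genes, the latter with 50.1% to 54.6% of the counts. The shares thus rest on unlike bases, and their sizes are not comparable. Whether the summed share of the 9 genes differed from that of all genes was not tested. With no filter on low counts 7 of these windows could be fitted, and 0 passed by edgeR, with 0 at an unadjusted p under 0.05.

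**Figure D4:**
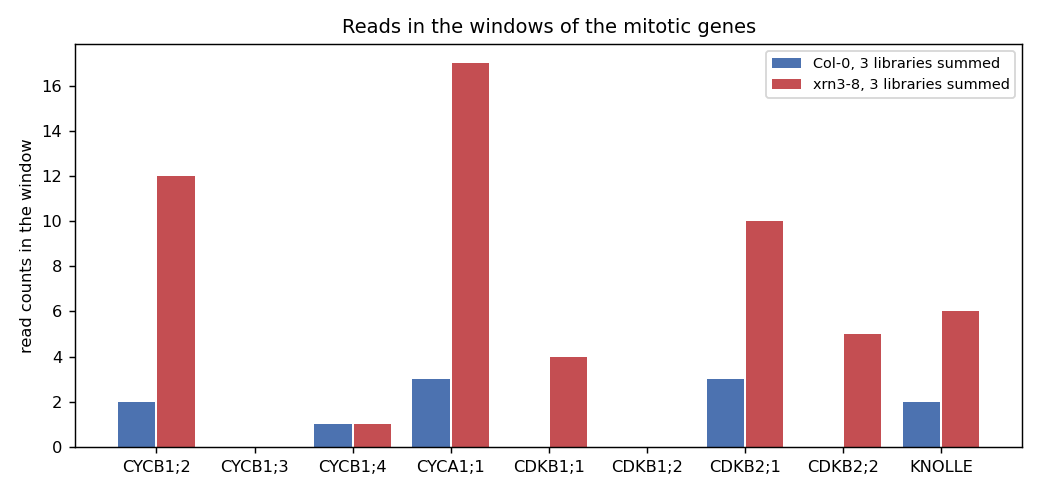
Read counts in the windows of 9 of the genes (vertical axis, starting at 0), summed over the 3 Col-0 libraries (blue) and the 3 xrn3-8 libraries (red). No window exceeds 17 counts per genotype, and a pair of windows is empty.

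Of the 20 genes that lie on either side of the 10 genes, 14 could be tested. Of these 1 was higher and 3 were lower, beside 15.9% and 17.4% of all genes. The higher one was ATO, the neighbour of a B-type cyclin (AT5G06150), with a log2 fold change of 0.37 (adjusted p = 0.019), and KNOLLE lay between NPQ1 (0.10, adjusted p = 0.46) and ACHT4 (0.084, adjusted p = 0.47). Of the neighbours' windows 4 could be tested and 2 were higher, beside 49.3% of all windows tested. The window of AT1G76530 (PILS4 in the reference), which lies beside CDKB2;1, held no read in the wild type and 57 in the mutant libraries, and that of AT3G11510, beside CYCB1;3, rose from 33 to 100 counts (adjusted p = 0.011). Whether reads of these neighbours reach into the counts of the mitotic genes was not tested.

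Few small RNA reads fell on the 10 genes in either genotype. No gene held more than 5 reads in any library, and the 10 genes together held 7, 8 and 10 reads in Col-0 and 11, 13 and 10 in xrn3-8. None reached the count needed for the test, in which 6.21% of genes were higher and 1.01% lower. With no filter all 10 could be fitted, and 0 passed by edgeR, with 0 at an unadjusted p under 0.05. At this depth a change of small RNA over these genes was not detectable, and these seedlings were younger than those of the RNA-seq libraries and grown otherwise.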

How the data were processed

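All deposited tables used are raw read counts by feature (gene, window or assembled locus) as the authors counted them. The submitters' processing notes name HISAT2 for RNA-seq, Bowtie for small RNA, and HTSeq and bedtools for both, on TAIR10. The RNA-seq kit was stranded, per the labels' protocols. The strand option used in counting was not stated, so a gene and an antisense partner may share reads. Reads with several positions were tallied apart in RNA-seq, which can lower counts of near-identical genes. Rows of unassigned reads, 22.6% to 26.1% of RNA-seq and 74.6% to 77.1% of small RNA tallies, stayed out of library sizes and tests.

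Counts were tested with edgeR 4.0.16 (quasi-likelihood, two-sided, Benjamini-Hochberg over all features tested, threshold 0.05) after filterByExpr with a minimum count of 10 and TMM scaling. Windows were scaled by the genes. CPM are counts per 1e+06 of the scaled library size, given as mean ± SD over 3 libraries. The standard error is the log2 fold change divided by the square root of F. Ratios within libraries used log2 CPM with a pseudocount of 0.1. The replicates are called biological by the series, and nothing in the labels pairs their numbers. Scripts were tested on simulated data.

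The 10 genes and the gene lists were chosen with earlier results of these data known. Of 156 listed genes 4 were left out because the reference gives their identifiers no such name, and 36899 of 37184 identifiers matched that reference (TAIR10.1). From each list at most 4 genes past the threshold, by adjusted p, are named as changed, with others given as values. DESeq2 1.42.0, other scalings and filters and fits without each library were tried. The planned window-to-gene ratio had no member with a testable window.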

Additional observations from a re-analysis of the deposited data

How the results depend on the processing

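All 10 log2 fold changes stayed positive in each of the 13 alternatives. The count of genes called higher was 10 with total counts as the scale, which moved the median of all genes from 0.0043 to 0.16, 9 with DESeq2, 7 with assembled loci fitted alongside, and 8 with no filter, with a minimum count of 30 and with nuclear genes setting the scale. Leaving out 1 library gave 6 to 9. With the replicate number as a block 9 genes were higher, all but CDKB2;1, and the median was 0.71. The deviations of same-numbered RNA-seq libraries correlated at 0.059, 0.20 and 0.17, each library best with its own number, which is a hint from the data and not from the design. The block changed no call on windows or small RNA, where no gene was tested. The ratio of CYCB1;1 to CYCB1;2 had the opposite sign with a pseudocount of 1 (-0.127, exact p = 0.2). With 1 library left out it ranged from -0.0533 to 0.104, that of CDKB2;2 to CDKB2;1 from -0.146 to 0.281, and that of CYCB1;4 to CYCB1;2 from -0.130 to 0.0155 (the cause was not tested). With 3 libraries a genotype no ratio could reach an exact p under 0.05, so these tests say nothing on whether the ratios are stable. Over all features, other counts that moved by more than 1.5 times were 5151 higher genes with assembled loci fitted alongside, 3518 higher windows with no filter, 379 higher and 24 lower windows with a minimum count of 30, 1039 higher and 184 lower small RNA genes with no filter, 247 higher with a minimum count of 30, and 167 higher and 24 lower with the block, and 6 lower ratios of window to gene, against 11, without Col-0 replicate 2. Without 1 library small RNA counts ranged from 288 to 489 higher and from 37 to 130 lower. Depth limits the windows and small RNA of the 10 genes, which with at most 8 and 5 reads per gene and library were too low for the test of single genes.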

Other observations

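Markers of 3 other places where cells divide or organs form were measured beside the mitotic genes. Over all genes tested, edgeR called 15.9% higher and 17.4% lower. None of the 7 stomatal lineage markers passed by edgeR, 2 had an unadjusted p under 0.05, and 1 was called higher by DESeq2 and by edgeR with total counts, with no filter, with the replicate number as a block, without Col-0 replicate 1 and without xrn3-8 replicate 1. SPCH, which starts the lineage, had means of 2.06 ± 0.66 CPM in the wild type and 3.32 ± 0.65 CPM in the mutant (SD, n = 3, adjusted p = 0.054), and MUTE, which acts after it, had means of 1.56 ± 0.051 and 1.03 ± 0.28 CPM (adjusted p = 0.098). The summed level of all 7 markers, 23.9 to 25.0 CPM in the wild type and 22.8 to 26.6 CPM in the mutant, overlapped. FAMA (means of 10.7 ± 0.18 and 10.1 ± 1.24 CPM) and TMM (7.05 ± 0.86 and 7.33 ± 1.04 CPM) made up most of it.

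Of 5 root tip markers the stem cell regulators PLT1 and PLT2 had no read in any library. With DESeq2 and with total counts as the scale 2 of the 3 tested were higher. By edgeR as set 1 of the 3 was higher (33.3%, beside 15.9% of all genes). This was WOX5, at 0.053 ± 0.039 and 0.273 ± 0.035 CPM (adjusted p = 0.014), a call lost without Col-0 replicate 2, Col-0 replicate 3 or xrn3-8 replicate 3. Of 4 tested floral markers 1 was higher, PI (adjusted p = 9.9e-05), while the other 3 had negative log2 fold changes and did not pass. In 3 of the 6 fits with 1 library left out (Col-0 replicate 2, or replicate 1 or 3 of the mutant), 1 floral marker was called lower.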
